A study of Mus musculus with 36 samples.

Results

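Interferon-stimulated genes are the genes that cells switch on after an interferon binds its receptor, and 48 of them were followed through primary mouse prostate organoids made to express forms of the transcription factor FOXA1. The members were a given list of gene symbols, matched to the Ensembl identifiers of the count tables, and every one of them was taken. All 48 were found among the 45232 genes of the tables, and 47 were among the 18176 genes that passed the filter on low counts. The exception was Epsti1, which had 13 counts summed over the 3 FE255del libraries of day 1 and at most 2 in any other group. RNA sequencing of polyadenylated RNA was done on organoids carrying a doxycycline-inducible lentivector (pCW) with no insert (EV, the empty vehicle of the labels), with wild-type FOXA1 (WT), or with the altered forms FOXA1 FE255del or FOXA1 R219S. Libraries were made for each construct on days 0, 1 and 11, with 3 libraries per construct and day and 36 in all. The protocols describe doxycycline at 500 ng/mL for all constructs, EV included, as the inducer of a fusion of FOXA1 with the red fluorescent marker DsRED, and the day 0 tables are named as without it. DsRED-positive cells of each infected construct were sorted and seeded in triplicate, so the 3 libraries are parallel cultures of 1 sorted population. The p-values therefore measure the spread between cultures, and a construct cannot be told apart from the population that carries it.

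As background, type I interferons bind the Ifnar1 and Ifnar2 receptor chains, and type III interferons, which act mainly on epithelia, bind Ifnlr1 with Il10rb. The kinases Jak1 and Tyk2 then start a relay in which Stat2 and Irf9 take part in a complex that binds a DNA element called the interferon-stimulated response element (ISRE). Interferon gamma acts mainly at a different element, the gamma-activated site (GAS), in genes such as Irf1. The induced proteins sense foreign nucleic acid, block translation and viral assembly, and feed back on the pathway. FOXA1 is a forkhead transcription factor of luminal prostate cells, and both altered forms change its DNA-binding forkhead domain.

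The promoters of 5 members are shown because these genes stand for the patterns described further on: Isg15 and Ifit3 were among the members far below EV at day 11, Ifit1 differed between the constructs, and Ifit2 and Irf1 ran against the rest. Each sequence is the 250 bases before the annotated start from RefSeq (GRCm38.p6), written 5′ to 3′ on the strand of the gene. Capitals mark the letters GAAANNGAAA (the ISRE core) or TTCNNNGAA (the GAS core) on either strand, where N is any base.
Isg15 (chr4:156200819-156201068, minus strand): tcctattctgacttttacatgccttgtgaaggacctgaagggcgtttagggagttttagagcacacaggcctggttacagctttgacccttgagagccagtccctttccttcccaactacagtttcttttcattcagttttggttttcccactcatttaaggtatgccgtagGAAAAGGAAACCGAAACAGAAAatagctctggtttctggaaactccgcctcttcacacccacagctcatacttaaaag
Ifit3 (chr19:34583279-34583528, plus strand): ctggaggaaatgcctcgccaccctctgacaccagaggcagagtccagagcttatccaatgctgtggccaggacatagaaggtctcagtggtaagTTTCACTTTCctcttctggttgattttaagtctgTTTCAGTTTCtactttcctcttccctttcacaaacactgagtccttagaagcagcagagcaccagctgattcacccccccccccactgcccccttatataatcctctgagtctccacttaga
Ifit1 (chr19:34640639-34640888, plus strand): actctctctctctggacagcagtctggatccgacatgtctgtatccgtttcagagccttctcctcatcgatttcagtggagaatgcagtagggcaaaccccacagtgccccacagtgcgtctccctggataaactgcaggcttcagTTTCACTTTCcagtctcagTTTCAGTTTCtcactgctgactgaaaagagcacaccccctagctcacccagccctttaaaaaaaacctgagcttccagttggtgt
Ifit2 (chr19:34550444-34550693, plus strand): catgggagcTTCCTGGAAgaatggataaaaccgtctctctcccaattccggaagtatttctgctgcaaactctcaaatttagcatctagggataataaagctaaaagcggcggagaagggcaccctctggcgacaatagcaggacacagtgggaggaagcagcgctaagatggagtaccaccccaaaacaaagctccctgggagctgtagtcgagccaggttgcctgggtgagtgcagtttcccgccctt
Irf1 (chr11:53769764-53770013, plus strand): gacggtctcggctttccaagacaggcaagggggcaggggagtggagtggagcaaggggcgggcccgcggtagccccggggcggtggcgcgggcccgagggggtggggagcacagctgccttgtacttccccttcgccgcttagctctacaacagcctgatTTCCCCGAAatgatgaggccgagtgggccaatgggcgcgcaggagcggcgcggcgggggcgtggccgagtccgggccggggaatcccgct
In Isg15, 3 overlapping copies of the ISRE core run together, with their first bases 78, 72 and 66 bases before the start. Ifit3 and Ifit1 each hold 2 copies on the opposite strand. The sequences of Ifit2 and Irf1 hold no ISRE core letters and 1 GAS core each, whose pattern reads the same way on both strands.

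Matches were counted in RefSeq windows of 300 bases, 250 before and 50 after the start, which were listed for 37 of the 48 members. The ISRE core letters occurred in 19 of these (51.4%), beside 3.99% of the 27025 genes with a window. The GAS core occurred in 7 (18.9%), beside 9.55% of all genes. The forkhead core TGTTTAC occurred in 2, Gbp3 and Rsad2 (5.41%), beside 4.05% of all genes. The ISRE and GAS patterns do not share a fixed overlap, and a match describes letters only, not bound factor. At day 11 the median log2 fold change of WT against EV was -1.83 over the 19 members with the ISRE core letters. It was -1.25 over the 17 tested members whose window lacked them. The 2 medians were -1.23 and -0.90 for FE255del, and -0.07 and -0.24 for R219S, where those without the letters lay lower. These are descriptions with no test. Several members are neighbours in the genome (GRCm38): Ifit2, Ifit3, Ifit3b and Ifit1 lie together on chromosome 19, and Oas2, Oas3, Oas1g and Oas1a on chromosome 5. Parp14, Dtx3l and Parp9 are neighbours on chromosome 16, and Rsad2 and Cmpk2 on chromosome 12.

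Library totals ran from 61476938 to 102385337 counts. Foxa1, the construct's gene, was at 233 ± 5 CPM (counts scaled to library size, mean ± SD, n = 3) in EV at day 0. At day 1 it was 0.87 ± 0.06 (log2 fold change ± SE) against EV for WT, 0.50 ± 0.06 for FE255del and 0.44 ± 0.06 for R219S, and at day 11 it was 0.22 ± 0.06, 0.36 ± 0.06 and 0.22 ± 0.06. Whether the counts include the transgene's transcripts is not given in the sources used here. The epithelial marker list was detected in every library, but its summed level moved with the constructs. At day 11 it was 7420 to 8720 CPM for WT and 7490 to 7900 for FE255del, below 11800 to 12400 for EV and 13200 to 14300 for R219S. At day 1 it was 4560 to 4690, 3700 to 3870 and 6750 to 6950 for WT, FE255del and R219S, and 10400 to 11200 for EV. Tyrobp, C1qa, C1qb, Siglech, Nkg7 and Emcn, which mark leukocytes, macrophages, plasmacytoid dendritic cells, lymphocytes and endothelium, were at 0 in all 36. Other markers of the same lists were detected. The macrophage markers Cd68 and Mrc1 ran from 1.16 to 8.83 CPM and from 0.145 to 7.3 CPM. Fcer1g (leukocytes) and Cd79a (lymphocytes) were each at 0 in only 1 library. The summed leukocyte list did not exceed 0.593 CPM in any library. The list for plasmacytoid dendritic cells, which make much interferon, summed to between 272 and 304 CPM in the EV libraries at day 11, while WT gave 94.5 to 137, FE255del 94.7 to 123 and R219S 370 to 539. Its levels came from Ly6d and Tcf4, which epithelia also express, and from Bst2, itself a member, with Siglech at 0. The macrophage list summed to 57.1 to 74 CPM in WT and 45.1 to 53.3 in FE255del at day 1, against 6.27 to 6.93 in EV, through Csf1r and with C1qa and C1qb at 0. At day 11 that list gave 7.51 to 10.2 in EV, 6.78 to 8.38 in WT, 11.2 to 12.2 in FE255del and 11.6 to 16.1 in R219S. The fibroblast list gave 1.19 to 1.61, 1.04 to 1.56, 0.714 to 1.4 and 2.03 to 3.27 CPM in the same order. The endothelial list summed to 4.22 to 4.74 CPM in WT and 6.46 to 7.07 in FE255del at day 1, against 0.569 to 0.817 in EV, through Pecam1. The part of any of these lists in the results below was not tested.

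The members moved apart between constructs over the 11 days. A summary level was taken as the mean over the 47 members of log2(CPM + 0.5), less each gene's mean over the 36 libraries. At day 0 it lay close together, at -0.04 ± 0.16 for EV, 0.20 ± 0.14 for WT, -0.12 ± 0.10 for FE255del and -0.05 ± 0.18 for R219S. At day 1 it was lower in all 4 constructs, at -0.24 ± 0.05, -0.47 ± 0.11, -0.61 ± 0.10 and -0.81 ± 0.06 in the same order. By day 11 EV stood at 1.11, 1.36 and 1.47 in its 3 libraries and R219S at 0.95, 1.37 and 0.94, while WT stood at -0.54, -0.34 and -0.47. FE255del lay between, with 2 libraries at 0.45 and 0.37 and replicate 2 at -0.28, which overlaps none of EV and lies just above WT. That library was the lowest of its group for 44 of the 47 members. Other libraries stood to one side of their group as well: EV replicate 1 of day 11 was the lowest for 42 members, R219S replicate 2 of day 0 for 42 and WT replicate 3 of day 0 for 40. R219S replicate 2 of day 11, the highest of its group, had a mitochondrial share of 4.37% of counts, beside 2.93% and 2.77% in the other two, and R219S replicate 2 of day 0 had 1.32%, the lowest of all libraries. The part of these shares in the results was not tested, and the day 11 counts against EV are also given without the day 11 libraries named here.

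**Figure D1:**
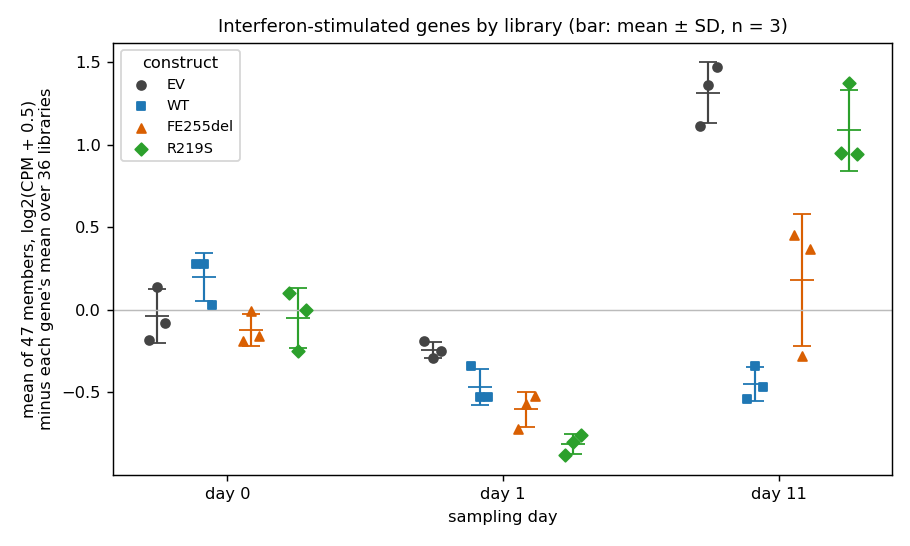
Summary level of the 47 tested members (y axis: mean over members of log2(CPM + 0.5), less each gene's mean over 36 libraries) by sampling day (x axis), with 1 point per library, coloured by construct, and bars for the mean ± SD of 3 libraries. At day 11 the 3 EV libraries and the 3 R219S libraries lie above all WT and FE255del libraries.

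The empty vector shows what the culture period did to these genes without a FOXA1 insert. After 1 day no member passed the test in either direction in edgeR's quasi-likelihood test (0 of 47, with 9 at an unadjusted p under 0.05; 1.43% of all genes tested passed). DESeq2 gave 0 lower and 0 higher. When EV libraries of days 0 and 1 were fitted alone, 7 members were lower. After 11 days 45 of 47 were higher than at day 0 and 1 lower, beside 23.1% of all genes higher and 24.6% lower. The median log2 fold change was 1.32, against 0.00 over all genes. Ifi27l2a, a small interferon-induced membrane protein gene, went from 2.56, 2.99 and 4.68 CPM at day 0 to 56.7, 64.0 and 92.5 at day 11, a log2 fold change of 4.39 ± 0.39 (adjusted p = 8.3e-10). The groups did not overlap, and the same was true of Trim30a, a member of the tripartite motif family, and Sp100, a nuclear body protein. Trim30a rose by 3.99 ± 0.38 and Sp100 by 3.23 ± 0.30 on the log2 scale. Irf1 was the member that fell (-0.19 ± 0.04, adjusted p = 4.8e-04), and Trim25, a ubiquitin ligase that acts with RIG-I, did not pass. Isg15 itself rose from 12.6, 15.7 and 15.7 CPM to 51.5, 47.2 and 60.9. Time in culture and doxycycline changed together between day 0 and day 11, so the part of each in the rise cannot be told apart.

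**Figure D2:**
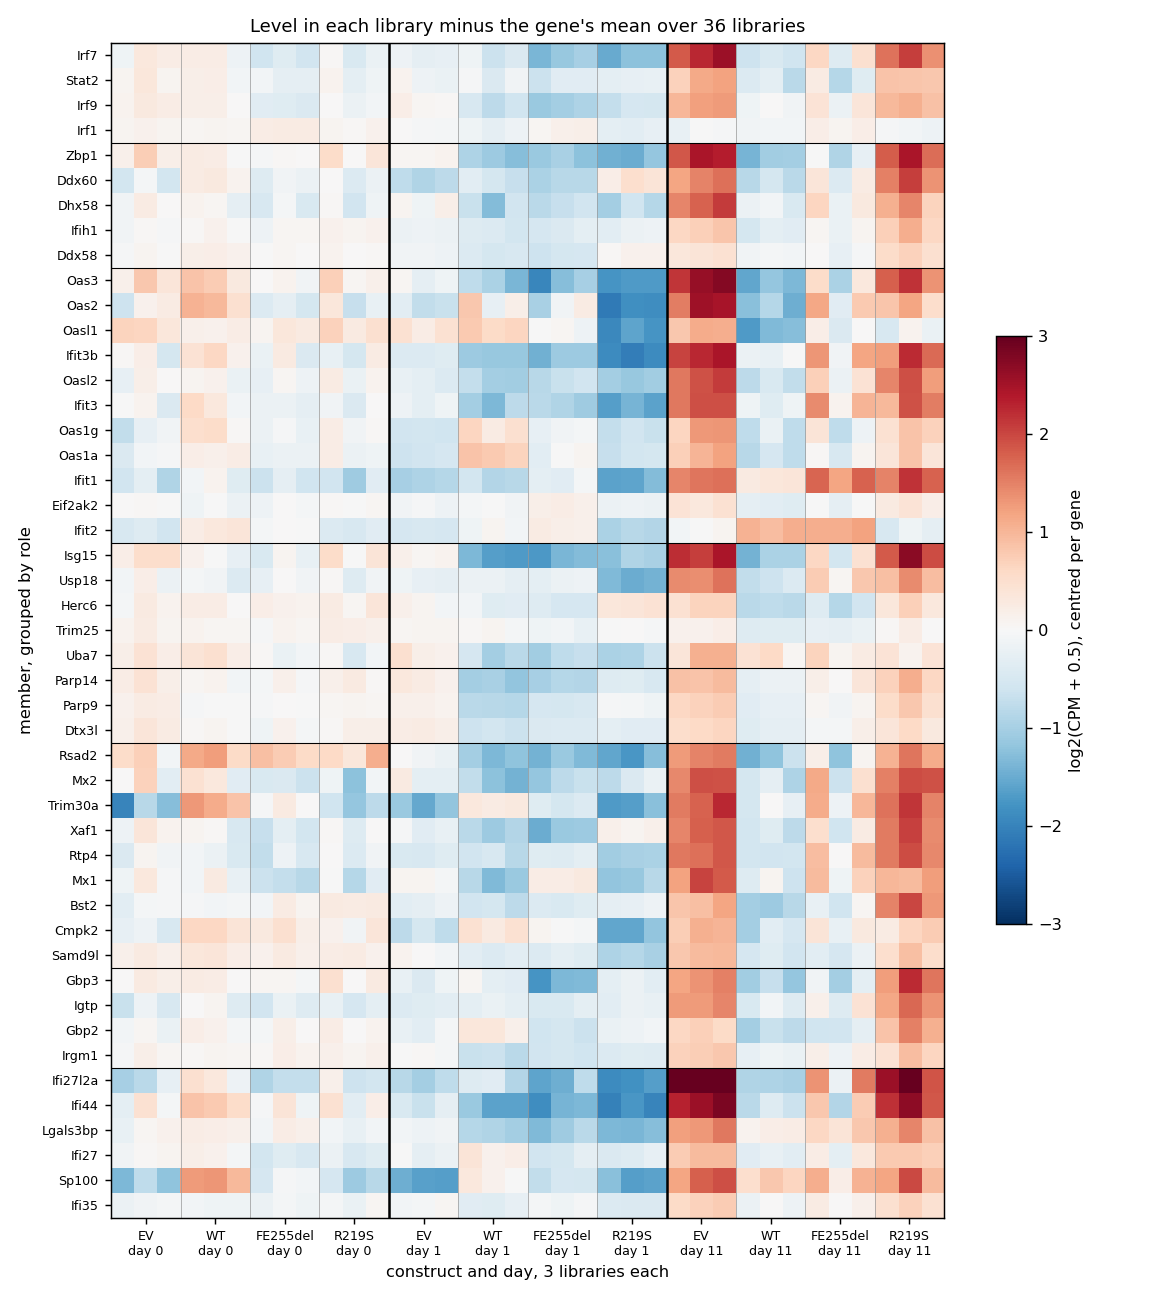
Level of each tested member (rows, grouped by role) in each of the 36 libraries (columns, by day and construct), as log2(CPM + 0.5) less the gene's mean over all libraries, with red above and blue below that mean. The EV and R219S blocks at day 11 are red for nearly every member, and Ifit2, Irf1 and, in R219S, Oasl1 are rows that depart from it.

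At day 11 nearly all members lay below EV in the WT cultures and below it by less in FE255del. In R219S most of them lay near the EV level. In WT 45 of 47 members were lower and 1 higher, with a median of -1.74 (all genes 0.01), where 19.7% of all genes were lower and 21% higher. In FE255del 44 were lower and 2 higher (median -1.16), with 19.6% and 22.6% of all genes. In R219S 10 were lower and 3 higher (median -0.18), with 14.4% and 17.7%, so the members' counts in R219S stand much closer to the background than those of WT and FE255del. Read by library, all 3 WT libraries lay below all 3 EV libraries for 44 members (22.3% of all genes), all 3 of FE255del for 43 (21.1%) and all 3 of R219S for 4 (16.4%). WT had the lowest of the 4 group means for 43 members (23.2% of all genes) and EV the highest for 36 (21.3%). The 3 comparisons share the EV libraries, and so does any likeness between them. Without EV replicate 1, 45 members were lower in WT and 44 in FE255del. Without FE255del replicate 2, 42 members were lower than EV in FE255del, and with only EV and FE255del of day 11 fitted 38 were, with Mx2, Sp100, Trim30a, Uba7, Oas2 and Ifit3 no longer passing. The R219S count was the least settled: it was 15 without EV replicate 1, 3 without EV replicate 3, 5 without EV replicate 2, 5 and 6 without R219S replicate 1 and 3, 18 without R219S replicate 2, 18 with total-count scaling and 4 with these groups fitted alone.

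**Figure D3:**
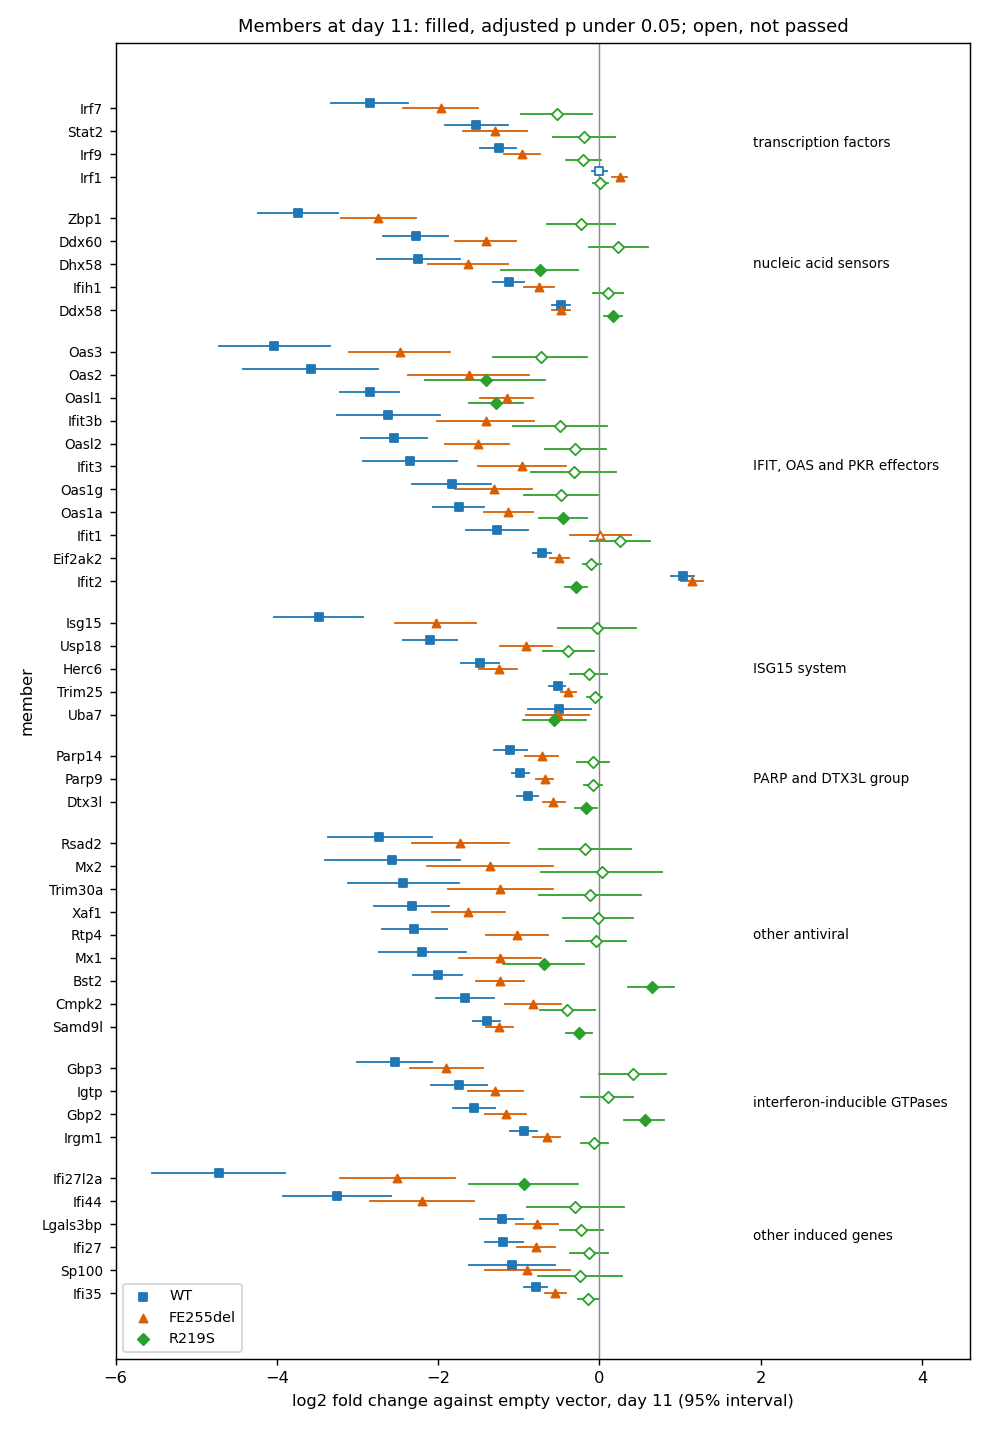
Log2 fold change against EV at day 11 (x axis) with its 95% interval for each of the 47 tested members (y axis), grouped by role, in WT (squares), FE255del (triangles) and R219S (diamonds), filled where the adjusted p was under 0.05. The WT points lie farthest to the left for most members, the R219S points cluster around 0, and Ifit2 lies to the right in WT and FE255del.

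Among the transcription factors, the subunits of the ISRE-binding complex and Irf7 were lower and Irf1 was not. Values are given from here on as scaled CPM in replicates 1, 2 and 3, and fold changes as log2 ± SE against EV at day 11. Irf7, which drives interferon alpha genes and is itself induced by interferon, was at 77.1, 102 and 128 for EV, 13.6, 15.3 and 13.9 for WT, 32.6, 16.1 and 29.9 for FE255del and 66.0, 91.3 and 56.0 for R219S. Every WT and FE255del library lay below every EV library, with WT below FE255del, and R219S overlapped EV. The fold changes were -2.85 ± 0.23 (adjusted p = 1.2e-10) for WT, -1.97 ± 0.22 (adjusted p = 4.3e-08) for FE255del and -0.53 ± 0.21 (adjusted p = 0.058) for R219S. Irf9, the DNA-binding subunit of the complex, was at 111, 133 and 136 for EV, 51.1, 56.6 and 51.9 for WT, 74.5, 49.4 and 71.8 for FE255del and 110.3, 118 and 102 for R219S. WT and FE255del again lay below EV but overlapped each other. Against EV they gave -1.25 ± 0.11 (adjusted p = 1.6e-10) for WT, -0.96 ± 0.11 (adjusted p = 2.3e-08) for FE255del and -0.20 ± 0.11 (adjusted p = 0.159) for R219S. Stat2, its partner, was at 49.3, 67.1 and 70.9 for EV, 22.9, 24.9 and 17.2 for WT, 36.2, 16.5 and 23.3 for FE255del and 55.3, 54.7 and 53.9 for R219S, with the same order. It fell by 1.53 ± 0.19 in WT and 1.30 ± 0.19 in FE255del, and R219S gave -0.19 ± 0.19 (adjusted p = 0.480). Irf1 was at 64.7, 74.1 and 73.1 for EV, 69.8, 71.3 and 70.8 for WT, 86.3, 79.2 and 86.4 for FE255del and 73.4, 71.3 and 68.1 for R219S. WT and R219S overlapped EV, and FE255del lay above it in all 3 libraries. FE255del was higher by 0.25 ± 0.04 (adjusted p = 1.7e-05), and WT did not pass (adjusted p = 1.000). In FE255del the 3 Irf1 libraries were already above all EV libraries at day 0, at 88.3, 88.6 and 89.8 beside 79.8, 82.7 and 79.5, a fold change of 0.14 ± 0.04 (adjusted p = 0.020). That day 0 call did not hold in every setting (adjusted p = 0.051 to 0.072 without EV replicate 1 or 3 or FE255del replicate 2 or 3 and adjusted p = 0.074 with total-count scaling), and the R219S value of Irf7 passed in some (adjusted p = 0.014 to 0.018 without EV replicate 1 or R219S replicate 2 and adjusted p = 0.036 to 0.045 with total-count scaling, with counts halved or with DESeq2).

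All 5 nucleic acid sensors fell in WT and in FE255del, and in R219S 1 fell and 1 rose. Over all genes, 19.7% were lower and 21% higher in WT, 19.6% and 22.6% in FE255del, and 14.4% and 17.7% in R219S. These shares are the background for the counts of each role below as well. Zbp1, a sensor of Z-form nucleic acid that can trigger cell death, was at 17, 25.6 and 24.1 for EV, 1.32, 1.84 and 1.86 for WT, 4.30, 2.09 and 3.53 for FE255del and 16.4, 25.7 and 14.8 for R219S. WT lay below FE255del and both lay below EV, while R219S overlapped EV. This gave -3.74 ± 0.24 (adjusted p = 2.2e-13) for WT, -2.75 ± 0.23 (adjusted p = 3.3e-11) for FE255del and -0.23 ± 0.20 (adjusted p = 0.440) for R219S, among the largest of the set. Ifih1 (MDA5), a sensor of long double-stranded RNA, was at 31.3, 33.5 and 36.6 for EV, 14.0, 16.6 and 16.0 for WT, 21.1, 17.5 and 21.7 for FE255del and 33.8, 44.0 and 31.6 for R219S, in the same order. It gave -1.12 ± 0.09 (adjusted p = 7.5e-12) for WT, -0.75 ± 0.09 (adjusted p = 3.5e-08) for FE255del and 0.11 ± 0.09 (adjusted p = 0.404) for R219S. Ddx58 (RIG-I), which senses RNA ends, had the smallest fall of the role, at 198, 207 and 218 for EV, 147, 152 and 149 for WT, 160.0, 132 and 155 for FE255del and 230.1, 254 and 219.5 for R219S. Here WT and FE255del overlapped each other below EV, and all 3 R219S libraries lay above EV. Against EV these were -0.48 ± 0.05 (adjusted p = 4.7e-09) for WT, -0.48 ± 0.05 (adjusted p = 3.7e-09) for FE255del and 0.17 ± 0.05 (adjusted p = 0.011) for R219S. Dhx58 was the sensor that fell in R219S (-0.74 ± 0.23, adjusted p = 0.015), and Ddx60 gave -2.28 ± 0.20 in WT and -1.41 ± 0.19 in FE255del. In R219S the fall of Dhx58 was lost in some settings (adjusted p = 0.103 without EV replicate 3 or R219S replicate 3 and adjusted p = 0.051 with only these groups fitted), as was the rise of Ddx58 (adjusted p = 0.071 to 0.142 without EV replicate 1 or R219S replicate 2 and adjusted p = 0.109 to 0.122 with total-count scaling or with only these groups fitted).

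The IFIT, OAS and PKR effectors, which act on foreign RNA, held some of the larger falls and also Ifit2, which rose. Of 11, 10 fell and 1 rose in WT, 9 fell and 1 rose in FE255del, and 4 fell in R219S. Oas2, which makes the oligoadenylates that activate RNase L, was at 29.6, 60.2 and 57.2 for EV, 3.82, 5.24 and 3.29 for WT, 22.8, 7.73 and 17.4 for FE255del and 17.9, 23.1 and 14.3 for R219S. All 3 constructs lay below EV, with WT lowest and FE255del and R219S overlapping. The changes from EV were -3.58 ± 0.41 (adjusted p = 5.9e-08) for WT, -1.62 ± 0.36 (adjusted p = 6.9e-04) for FE255del and -1.41 ± 0.36 (adjusted p = 0.003) for R219S. Its neighbour Oas3 gave -4.03 ± 0.34 in WT, -2.47 ± 0.30 in FE255del and -0.73 ± 0.28 in R219S (not passed). Oasl2, an OAS-like protein, was at 135, 169.5 and 193 for EV, 25.8, 32.5 and 26.6 for WT, 74.2, 39.2 and 60.5 for FE255del and 124, 172 and 107 for R219S, with WT below FE255del below EV and R219S overlapping EV. It gave -2.55 ± 0.20 (adjusted p = 5.8e-11) for WT, -1.51 ± 0.19 (adjusted p = 2.8e-07) for FE255del and -0.30 ± 0.19 (adjusted p = 0.241) for R219S. Eif2ak2 (PKR), the kinase that halts translation, moved less, at 104, 98.6 and 108 for EV, 64.7, 63.2 and 61.5 for WT, 77.4, 65.1 and 77.5 for FE255del and 94.3, 105 and 91.0 for R219S. The order was the same, with fold changes of -0.71 ± 0.06 (adjusted p = 9.7e-13) for WT, -0.50 ± 0.06 (adjusted p = 3.7e-09) for FE255del and -0.10 ± 0.06 (adjusted p = 0.205) for R219S. Of the role's other members, Oasl1, Oas1g and Oas1a gave -2.85, -1.83 and -1.74 in WT and -1.15, -1.31 and -1.13 in FE255del. In R219S Oasl1 (-1.28 ± 0.16, adjusted p = 8.4e-08) and Oas1a (-0.45 ± 0.15, adjusted p = 0.018) fell, the latter not in all settings (adjusted p = 0.053 to 0.112 without EV replicate 2 or 3 or R219S replicate 1 or 3 and adjusted p = 0.095 with only these groups fitted). Oas1g and Oas1a are near-identical neighbours and may share reads. The fall of Oas2 in FE255del was lost with only these groups fitted (adjusted p = 0.061), and in R219S Oas3 (adjusted p = 0.027 to 0.028 without EV replicate 1 or R219S replicate 2 and adjusted p = 0.031 to 0.035 with total-count scaling or with counts halved), Oasl2 (adjusted p = 0.047 without R219S replicate 2) and Eif2ak2 (adjusted p = 0.035 without R219S replicate 2 and adjusted p = 0.034 with total-count scaling) passed in some settings.

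The 4 neighbouring Ifit genes did not move together. Ifit3 was at 6.32, 8.12 and 8.22 for EV, 1.57, 1.28 and 1.57 for WT, 5.58, 1.95 and 4.09 for FE255del and 4.0, 8.07 and 6.13 for R219S, with WT below FE255del and FE255del below EV. It gave -2.35 ± 0.28 (adjusted p = 3.6e-08) for WT, -0.96 ± 0.26 (adjusted p = 0.003) for FE255del and -0.32 ± 0.26 (adjusted p = 0.395) for R219S. Ifit3b, a near-identical copy whose reads may be shared with Ifit3, gave -2.62 ± 0.31 in WT and -1.41 ± 0.29 in FE255del, and both are uncertain for that reason. Ifit1, which binds RNA with foreign cap structures, was at 44.5, 49.2 and 51.3 for EV, 19.1, 20.3 and 20.6 for WT, 54.4, 36.4 and 55.5 for FE255del and 45.1, 73.1 and 54.9 for R219S. Only WT lay below EV, while FE255del and R219S overlapped it. The fold changes were -1.27 ± 0.19 (adjusted p = 3.6e-06) for WT, 0.01 ± 0.18 (adjusted p = 0.974) for FE255del and 0.26 ± 0.18 (adjusted p = 0.323) for R219S. Ifit2, at the other end of the cluster, was at 30.1, 31.5 and 33.6 for EV, 65.7, 60.5 and 67.9 for WT, 68.6, 68.6 and 73.3 for FE255del and 22.5, 29.1 and 26.0 for R219S. WT and FE255del lay above every EV library and R219S lay below. Ifit2 gave 1.03 ± 0.07 (adjusted p = 8.7e-15) for WT, 1.15 ± 0.07 (adjusted p = 4.2e-16) for FE255del and -0.29 ± 0.07 (adjusted p = 7.5e-04) for R219S. Ifit2 was already above EV at day 0, with 37.2, 39.5 and 40.8 CPM in WT and 30.7, 31.8 and 31.5 in FE255del beside 22.6, 24.2 and 21 in EV, fold changes of 0.79 ± 0.07 and 0.47 ± 0.07. Its promoter window printed above holds no ISRE core letters, whereas those of Ifit1 and Ifit3 hold 2 each. Of the 17 tested members whose window lacked the letters, 15 fell in WT and 15 in FE255del. Of the 19 with the letters, 19 fell in WT and 18 in FE255del. The part of these letters in the course of Ifit2 was not tested. The fall of Ifit3 in FE255del was lost in 1 setting (adjusted p = 0.085 with only these groups fitted).

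**Figure D4:**
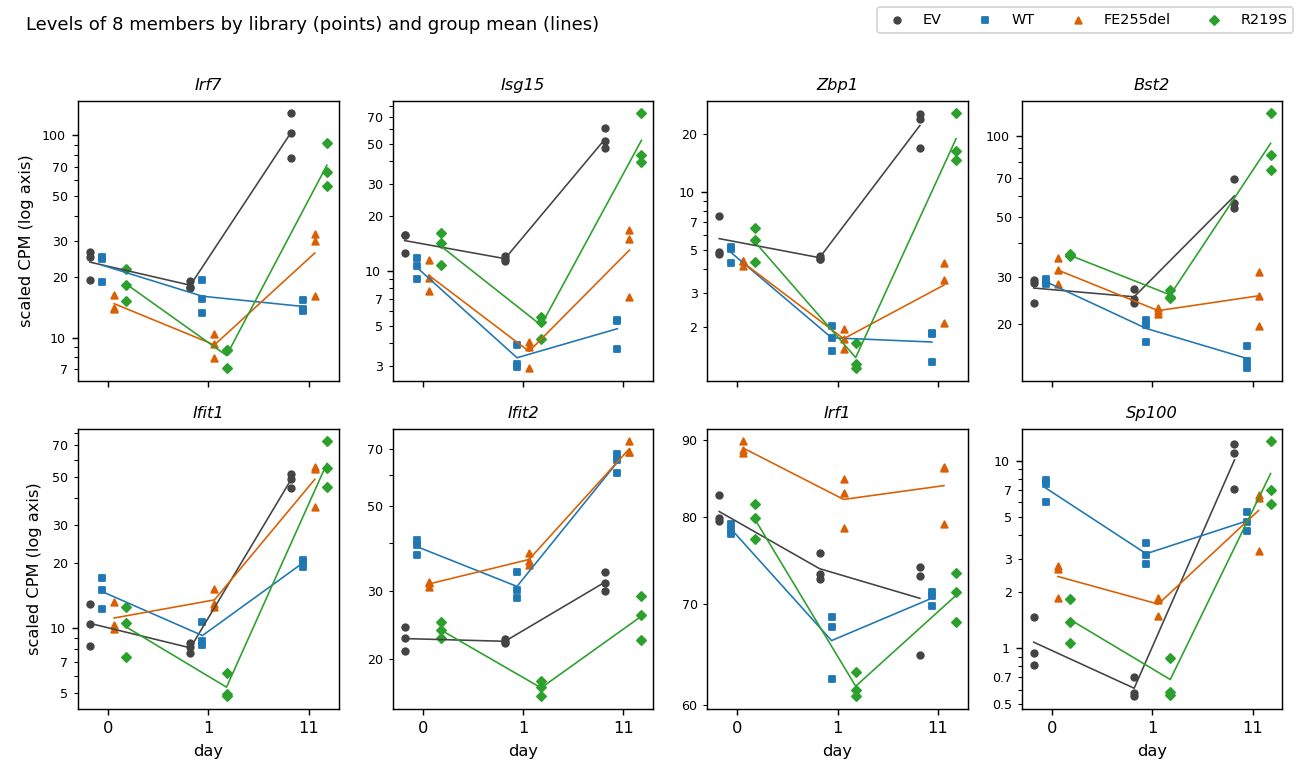
Scaled CPM (y axis, log scale, own range per panel) of 8 members by day (x axis), with 1 point per library and lines through the means of 3 libraries, coloured by construct. Irf7, Isg15 and Zbp1 are high at day 11 in EV and R219S and lower in WT and FE255del, while Ifit2 is high at day 11 in WT and FE255del and Irf1 moves little.

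The ISG15 system fell in WT and FE255del (5 and 5 of 5), with 1 lower in R219S. Isg15, the ubiquitin-like protein whose promoter is printed above, was at 51.5, 47.2 and 60.9 for EV, 3.74, 5.36 and 5.33 for WT, 16.8, 7.18 and 15.0 for FE255del and 39.9, 73.4 and 43.1 for R219S. WT lay below FE255del, FE255del below EV, and the R219S libraries on both sides of EV. Against EV they gave -3.48 ± 0.27 (adjusted p = 3.9e-11) for WT, -2.03 ± 0.25 (adjusted p = 1.3e-07) for FE255del and -0.03 ± 0.23 (adjusted p = 0.950) for R219S, and the WT value corresponds to an 11.1-fold lower level. Usp18, the protease that removes ISG15 and restrains the receptor, was at 70.2, 69.2 and 81.4 for EV, 15.3, 16.9 and 19.4 for WT, 44.3, 27.3 and 45.9 for FE255del and 49.2, 70.1 and 49.4 for R219S. WT again lay below FE255del and FE255del below EV, while R219S overlapped EV through replicate 2 and its other libraries lay below EV. The fold changes were -2.10 ± 0.16 (adjusted p = 2.8e-11) for WT, -0.91 ± 0.15 (adjusted p = 2.2e-05) for FE255del and -0.39 ± 0.15 (adjusted p = 0.054) for R219S. Herc6, a ligase for ISG15, gave -1.48 ± 0.12 in WT and -1.25 ± 0.11 in FE255del. Uba7, the enzyme that activates ISG15, was the least settled WT call, at -0.50 ± 0.19 (adjusted p = 0.037), and it was lost in several settings (adjusted p = 0.072 to 0.178 without EV replicate 2 or 3 or WT replicate 1 or 3 and adjusted p = 0.070 to 0.173 with total-count scaling, with no filter on low counts or with only these groups fitted). Trim25, a ubiquitin ligase that also joins ISG15 to proteins, gave -0.52 ± 0.05 in WT and -0.39 ± 0.05 in FE255del. The R219S value of Usp18 passed in some settings (adjusted p = 0.006 without R219S replicate 2 and adjusted p = 0.025 to 0.045 with total-count scaling, with counts halved or with DESeq2). All 3 genes of the PARP and DTX3L group fell in WT and in FE255del. Parp14, an ADP-ribosyltransferase, was at 144, 144 and 153 for EV, 65.0, 69.7 and 69.6 for WT, 88.5, 78.7 and 102 for FE255del and 128, 168 and 122 for R219S, with WT below FE255del below EV. It gave -1.11 ± 0.10 (adjusted p = 2.3e-10) for WT, -0.71 ± 0.10 (adjusted p = 6.7e-07) for FE255del and -0.08 ± 0.10 (adjusted p = 0.602) for R219S. Dtx3l and Parp9, which form a complex, share 458 exonic bases on opposite strands, and the strand setting of the counting is not given in the sources used here. Their reads can therefore not be fully told apart, and they gave -0.89 ± 0.07 and -0.98 ± 0.06 in WT.

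The 9 other antiviral genes all fell in WT and in FE255del, while in R219S 2 fell and 1 rose. Rsad2 (viperin), which makes a chain-terminating nucleotide, was at 15.2, 17.5 and 18.5 for EV, 1.89, 2.28 and 3.63 for WT, 6.80, 2.32 and 6.35 for FE255del and 12.7, 19.1 and 13.5 for R219S. WT and FE255del overlapped through FE255del replicate 2 and both lay below EV. It gave -2.73 ± 0.31 (adjusted p = 5.4e-08) for WT, -1.73 ± 0.29 (adjusted p = 2.3e-05) for FE255del and -0.18 ± 0.28 (adjusted p = 0.683) for R219S. Xaf1, a cell death factor, was at 38.0, 47.8 and 50.6 for EV, 9.08, 10.5 and 7.59 for WT, 19.3, 8.74 and 16.1 for FE255del and 40.9, 57.1 and 36.9 for R219S, again with replicate 2 of FE255del within the WT range. This gave -2.33 ± 0.23 (adjusted p = 3.3e-09) for WT, -1.63 ± 0.22 (adjusted p = 8.2e-07) for FE255del and -0.02 ± 0.21 (adjusted p = 0.976) for R219S. Mx1, a dynamin-like GTPase that blocks viral ribonucleoproteins, was at 8.76, 16.1 and 13.9 for EV, 2.58, 3.76 and 2.12 for WT, 7.30, 3.22 and 6.03 for FE255del and 7.51, 7.29 and 9.15 for R219S. The R219S libraries overlapped EV through 1 EV library. Against EV these were -2.20 ± 0.26 (adjusted p = 4.6e-08) for WT, -1.23 ± 0.25 (adjusted p = 1.6e-04) for FE255del and -0.69 ± 0.24 (adjusted p = 0.029) for R219S. Bst2 (tetherin), which holds budding virions at the cell surface, split the constructs in both directions, at 54.1, 56.7 and 69.2 for EV, 14.6, 13.8 and 16.6 for WT, 25.5, 19.8 and 31.4 for FE255del and 85.3, 122 and 75.2 for R219S. WT lay below FE255del, FE255del below EV, and all 3 R219S libraries above EV. It gave -2.0 ± 0.15 (adjusted p = 1.1e-11) for WT, -1.23 ± 0.14 (adjusted p = 5.5e-08) for FE255del and 0.65 ± 0.14 (adjusted p = 5.4e-04) for R219S. The remaining members, Mx2, Cmpk2, Rtp4, Trim30a and Samd9l, ranged from -2.57 (Mx2) to -1.40 (Samd9l) in WT and -1.36 (Mx2) to -0.83 (Cmpk2) in FE255del. Samd9l was the other gene that fell in R219S (-0.25 ± 0.08, adjusted p = 0.016), though not in all settings (adjusted p = 0.057 to 0.125 without EV replicate 2 or 3 or R219S replicate 1 or 3 and adjusted p = 0.122 with only these groups fitted). The R219S call of Mx1 was lost in several settings (adjusted p = 0.081 to 0.177 without EV replicate 2 or 3 or R219S replicate 1 or 2 and adjusted p = 0.057 with no filter on low counts), and that of Bst2 in 1 (adjusted p = 0.051 with only these groups fitted).

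All 4 interferon-inducible GTPases, which attack the vacuoles of intracellular pathogens, fell in WT and FE255del, and 1 rose in R219S. That gene was Gbp2, at 12.4, 13.3 and 12.1 for EV, 3.67, 4.82 and 4.42 for WT, 5.13, 5.19 and 6.54 for FE255del and 14.7, 23.6 and 17.2 for R219S. The 3 R219S libraries lay above EV, and WT lay below FE255del. It gave -1.55 ± 0.13 (adjusted p = 3.2e-12) for WT, -1.16 ± 0.12 (adjusted p = 1.4e-09) for FE255del and 0.56 ± 0.12 (adjusted p = 3.3e-04) for R219S. Irgm1 was at 76.3, 78.6 and 82.9 for EV, 39.6, 43.2 and 41.2 for WT, 53.7, 42.6 and 54.8 for FE255del and 64.0, 89.3 and 74.0 for R219S, with R219S overlapping EV and fold changes of -0.94 ± 0.08 (adjusted p = 4.4e-11) for WT, -0.65 ± 0.08 (adjusted p = 6.5e-08) for FE255del and -0.07 ± 0.08 (adjusted p = 0.587) for R219S. Of the remaining induced genes, all 6 that were tested fell in WT and FE255del. Ifi44 was at 67.6, 81.0 and 98.2 for EV, 7.46, 10.1 and 8.33 for WT, 23.8, 7.07 and 22.8 for FE255del and 62.4, 87.8 and 49.96 for R219S, with WT and FE255del overlapping below EV. It gave -3.25 ± 0.33 (adjusted p = 7.1e-09) for WT, -2.20 ± 0.31 (adjusted p = 1.7e-06) for FE255del and -0.30 ± 0.29 (adjusted p = 0.480) for R219S. Ifi27 was at 127, 144 and 146 for EV, 59.2, 63.5 and 60.1 for WT, 87.3, 61.0 and 93.2 for FE255del and 128, 129.7 and 122 for R219S, and Lgals3bp, a secreted galectin-binding glycoprotein, was at 241, 251 and 306 for EV, 109, 117 and 118 for WT, 157, 132 and 178 for FE255del and 215, 279.8 and 189 for R219S. In both genes every WT and FE255del library lay below every EV library. Ifi27 gave -1.19 ± 0.11, -0.79 ± 0.11 and -0.13 ± 0.11 in WT, FE255del and R219S, and Lgals3bp gave -1.21 ± 0.13, -0.77 ± 0.13 and -0.23 ± 0.13, with neither passing in R219S. The farthest fall of any member was that of Ifi27l2a, at 56.7, 64.0 and 92.5 for EV, 2.77, 2.69 and 2.61 for WT, 15.1, 4.92 and 17.5 for FE255del and 35.9, 52.9 and 22.1 for R219S. All 3 constructs lay below EV, in the order WT, FE255del, R219S. The changes from EV were -4.72 ± 0.40 (adjusted p = 2.7e-10) for WT, -2.51 ± 0.35 (adjusted p = 1.3e-06) for FE255del and -0.94 ± 0.33 (adjusted p = 0.027) for R219S. Of the GTPases not yet described, Gbp3 gave -2.54 ± 0.23 and Igtp -1.74 ± 0.17 in WT, and of the other induced genes Ifi35 gave -0.79 ± 0.07 and Sp100 -1.08 ± 0.26. In R219S the call of Ifi27l2a was lost in some settings (adjusted p = 0.075 to 0.149 without EV replicate 3 or R219S replicate 1 or 3 and adjusted p = 0.106 with only these groups fitted), and without R219S replicate 2 Irgm1 and Lgals3bp passed as lower (adjusted p = 0.039 and 0.017). Part of the exons of Ifi35, Igtp, Rtp4 and Herc6 overlaps another annotated gene, so a share of their reads may belong to it.

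The altered forms were also set directly against WT at day 11. Against WT, 44 of 47 members were higher in R219S and 1 lower (median 1.51), beside 24.8% of all genes higher and 24.1% lower. In FE255del 35 were higher and the other 12 did not pass (median 0.62), beside 9.75% of all genes higher and 7.92% lower. The widest gaps between R219S and WT were those of Ifi27l2a (3.78 ± 0.39, adjusted p = 7.0e-09), Zbp1 (3.51 ± 0.24, adjusted p = 4.5e-13) and Isg15 (3.45 ± 0.27, adjusted p = 2.8e-11). Ifit2 was the member that was lower in R219S (-1.32 ± 0.07, adjusted p = 7.9e-18), and Irf1 and Uba7 did not pass. Between FE255del and WT the widest were Ifi27l2a (2.22 ± 0.39, adjusted p = 1.2e-04), Oas2 (1.96 ± 0.40, adjusted p = 7.4e-04) and Oasl1 (1.70 ± 0.18, adjusted p = 1.0e-08). The FE255del count rests on few libraries: 39 members were higher without FE255del replicate 2, 21 without replicate 1, 23 without WT replicate 1, and 18 with these groups fitted alone.

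Each construct's own course from day 0 was then read beside that of EV. From day 0 to day 11, 32 members fell and 1 rose in WT (median -0.59; 24.5% of all genes lower and 22.7% higher). Rsad2 (-2.29 ± 0.31), Oas2 (-2.15 ± 0.40) and Oas3 (-2.12 ± 0.33) fell most, and Ifit2 was the member that rose (0.72 ± 0.07), with a further one without WT day 0 replicate 2 (2 in all). In FE255del 21 rose and 5 fell (median 0.33; 26.7% and 28.1% of all genes), led by Ifit1 (2.13 ± 0.20), Ifi27l2a (2.03 ± 0.38) and Mx1 (1.51 ± 0.27). Rsad2 (-1.01 ± 0.29), Herc6 (-0.78 ± 0.11) and Gbp2 (-0.56 ± 0.13) fell most there, and 26 members rose without replicate 2 of day 11 and 9 fell without replicate 1. Rsad2 was not lower there with only these groups fitted (adjusted p = 0.087). In R219S 42 rose and 2 fell (median 1.11; 29.6% and 30.2% of all genes). Trim30a (3.15 ± 0.36), Ifi27l2a (3.06 ± 0.37) and Sp100 (2.61 ± 0.29) rose most, and Oasl1 (-0.72 ± 0.17) and Irf1 (-0.17 ± 0.04) fell.

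The test of the difference between courses takes each population's own day 0 as its baseline. The change to day 11 was lower in WT than in EV for 44 of 47 members (median -2.11), beside 10.5% of all genes lower. It was lower in FE255del for 36 and higher for 1 (median -0.97), beside 11.1% lower and 9.44% higher. In R219S it was lower for 5 (median -0.12), beside 14.7% lower. For Isg15 the change was -2.99 ± 0.36 (adjusted p = 5.7e-07) beside that of EV in WT, and -1.40 ± 0.35 (adjusted p = 0.004) in FE255del. For Ifit2, which started higher in WT, it was 0.24 ± 0.09 (adjusted p = 0.072) in WT, which passed in some settings (adjusted p = 0.038 without EV day 0 replicate 3 or WT day 11 replicate 2 and adjusted p = 0.041 to 0.049 with total-count scaling or with counts halved), and 0.68 ± 0.10 (adjusted p = 1.1e-06) in FE255del. The R219S count was 3 without EV day 0 replicate 1, EV day 11 replicate 2 or 3, R219S day 0 replicate 1 or R219S day 11 replicate 1 or 3, and 10 without R219S day 11 replicate 2.

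One day after induction the constructs were ordered differently. Against EV at day 1, R219S had the most members lower, 29 of 47 with 3 higher (median -0.54), beside 25.3% of all genes lower and 23.2% higher. WT had 26 lower and 9 higher (median -0.29; 30.9% and 29.6% of all genes), and FE255del 26 and 8 (median -0.43; 27.7% and 25.5%). Isg15 was at 12, 11.3 and 11.7 CPM for EV, 3.92, 3.09 and 2.98 for WT, 2.92, 3.83 and 4.07 for FE255del and 4.23, 5.58 and 5.25 for R219S. All 3 constructs lay below EV. The fold changes were -1.81 ± 0.27 in WT, -1.69 ± 0.27 in FE255del and -1.22 ± 0.27 in R219S. These were the farthest falls of any member in WT and FE255del. Zbp1 fell to a like extent in WT (-1.38 ± 0.24) and FE255del (-1.39 ± 0.24), Mx1 fell in WT (-1.36 ± 0.28), and Gbp3, a guanylate-binding GTPase, in FE255del (-1.46 ± 0.25). In R219S the farthest falls were in Oasl1 (-2.66 ± 0.19, adjusted p = 4.9e-14), Ifit3b (-2.57 ± 0.42, adjusted p = 8.1e-06) and Ifit3 (-2.42 ± 0.37, adjusted p = 1.4e-06). Ifit3b and Ifit3 were at low levels there, 0.37, 0.25 and 0.35 CPM and 0.23, 0.37 and 0.24 CPM. As near-identical copies they may share reads, so their falls are not independent.

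Some members were above EV at day 1. Sp100 was at 0.698, 0.579 and 0.555 CPM in EV, 3.63, 3.13 and 2.80 in WT and 1.48, 1.86 and 1.81 in FE255del, fold changes of 2.38 ± 0.33 and 1.49 ± 0.34. Trim30a gave 2.19 ± 0.39 and 1.28 ± 0.41 (the latter with adjusted p = 0.052 without EV replicate 2), Oas1a, an oligoadenylate synthetase, gave 1.39 ± 0.15 in WT, and Cmpk2, a mitochondrial nucleotide kinase, 0.78 ± 0.18 in FE255del. Oas1a has a near-identical neighbour, Oas1g, and its value is uncertain for that reason. In R219S the sensors Ddx60 (1.27 ± 0.20, adjusted p = 3.4e-06) and Ddx58 (0.22 ± 0.05, adjusted p = 9.4e-04) and the ISG15 ligase Herc6 (0.35 ± 0.11, adjusted p = 0.010) were higher, the last not without EV replicate 3 (adjusted p = 0.063). Against WT at day 1, 10 members were higher and 19 lower in R219S (30.5% and 29.1% of all genes), and 8 and 11 in FE255del (21.8% and 19.9%), with 7 lower without WT replicate 1. Against WT, Oasl1 (-2.97 ± 0.19), Trim30a (-2.70 ± 0.41) and Oas2 (-2.50 ± 0.43) were farthest below in R219S and Xaf1 (1.10 ± 0.23) farthest above, while in FE255del Gbp3 (-1.54 ± 0.24) was farthest below and Mx1 (1.59 ± 0.28) farthest above. From day 0 to day 1, 31 members fell in WT (30.2% of all genes), 27 in FE255del (28.3%) and 38 in R219S (29.5%). The counts that rose were 2, 3 and 1, beside 28.9%, 25% and 22.7% of all genes. Rsad2 was among the 3 farthest falls in each, at -2.43 ± 0.31, -2.27 ± 0.32 and -2.50 ± 0.33. The change to day 1 was lower than that of EV for 21 members in WT (23.8% of all genes), 16 in FE255del (22.9%) and 19 in R219S (23.3%). It was higher than that of EV for 2, 3 and 1 members, beside 20.2%, 17.4% and 16.1% of all genes. These were Oas1a (1.02 ± 0.21) and Oasl1 (0.73 ± 0.23) in WT, Mx1 (1.18 ± 0.38), Oas1a and Eif2ak2 in FE255del, and Ddx60 (1.07 ± 0.28) in R219S, named after their values were seen.

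Some members already differed between the populations at day 0. Against EV, 6 members were higher and 2 lower in WT (9.9% and 12.8% of all genes), 5 and 7 in FE255del (11.1% and 9.72%), and 1 and 2 in R219S (13.2% and 6.92%). Trim30a was at 0.171, 0.988 and 0.594 CPM for EV, 5.98, 5.20 and 4.27 for WT, 2.09, 2.68 and 2.14 for FE255del and 1.23, 0.677 and 1.04 for R219S. WT and FE255del lay above EV without overlap. It gave 3.14 ± 0.38 (adjusted p = 3.3e-07) in WT and 1.98 ± 0.39 (adjusted p = 5.7e-04) in FE255del. Sp100 gave 2.73 ± 0.30 (adjusted p = 3.3e-08) and 1.17 ± 0.31 (adjusted p = 0.006), and Cmpk2 0.90 ± 0.17 (adjusted p = 1.8e-04) and 0.66 ± 0.18 (adjusted p = 0.007). These genes were therefore above EV before day 1 and below it at day 11. Mx1 (-0.94 ± 0.27), Irf7 (-0.68 ± 0.23) and Xaf1 (-0.66 ± 0.23) were lowest in FE255del at day 0, with an adjusted p of 0.013, 0.034 and 0.041. These calls were weak: Mx1 was lost at adjusted p = 0.060 to 0.090 without EV replicate 2 or FE255del replicate 3, Irf7 at adjusted p = 0.054 to 0.139 without EV replicate 2 or 3 or FE255del replicate 1, 2 or 3 and adjusted p = 0.059 with no filter on low counts, and Xaf1 at adjusted p = 0.074 to 0.201 without EV replicate 2 or 3 or FE255del replicate 1 or 3 and adjusted p = 0.051 to 0.077 with no filter on low counts or with the replicate block. In WT, Dtx3l (-0.21 ± 0.07, adjusted p = 0.015) and Parp9 (-0.22 ± 0.06, adjusted p = 0.003) were lower, Dtx3l not in all settings (adjusted p = 0.070 to 0.119 without EV replicate 2 or WT replicate 3 and adjusted p = 0.051 with no filter on low counts). In R219S, Ifi27 (-0.36 ± 0.11, adjusted p = 0.029) and Irf9 (-0.30 ± 0.11, adjusted p = 0.049) were lower and Bst2 higher (0.40 ± 0.14, adjusted p = 0.047), and all 3 calls were lost when single libraries were left out (adjusted p = 0.090 to 0.156 without EV replicate 2 or 3 or R219S replicate 2 or 3 for Ifi27, adjusted p = 0.106 to 0.192 without EV replicate 2 or 3 or R219S replicate 2 or 3 and adjusted p = 0.060 to 0.086 with no filter on low counts or with the replicate block for Irf9, and adjusted p = 0.055 to 0.189 without EV replicate 1, 2 or 3 or R219S replicate 1, 2 or 3 and adjusted p = 0.052 to 0.112 with RLE scaling, with total-count scaling, with no filter on low counts or with counts halved for Bst2). The lower count was 1 in WT and 4 in FE255del without EV replicate 2, and the same without replicate 3 of each construct. Against WT at day 0, 10 members were lower in FE255del and 9 in R219S (11.2% and 16% of all genes). Sp100 (-2.35 ± 0.29) and Trim30a (-2.42 ± 0.36) were again farthest apart, in R219S, and Oas2 was lower in FE255del (-1.30 ± 0.38, lost at adjusted p = 0.051 to 0.053 without WT replicate 1 or FE255del replicate 3). Single libraries moved these counts: the FE255del count was 6 without WT replicate 1 or 2 or FE255del replicate 2 and 5 without FE255del replicate 3, and the R219S count 4 without WT replicate 1 or 2 or R219S replicate 2. With only these groups fitted, 21 were lower in FE255del.

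The genes around the members were taken from lists of the pathway's parts. Of 21 interferon genes, Ifne, an epithelial type I interferon, was the only one that passed the filter. Ifnb1, the first type I interferon made by most cells, had 4 counts summed over the 3 EV libraries at day 11, 2 over WT, 0 over FE255del and 4 over R219S. At these depths a change in it was not detectable. Ifne was at 0.770, 0.612 and 0.543 CPM for EV, 0.917, 1.47 and 0.937 for WT, 1.01, 1.43 and 1.03 for FE255del and 0.562, 0.606 and 0.814 for R219S. All WT and FE255del libraries lay above all EV libraries, and the fold changes were 0.78 ± 0.31 (adjusted p = 0.041) in WT and 0.85 ± 0.31 (adjusted p = 0.025) in FE255del. At this level, near 1 CPM, the calls were lost in some settings (adjusted p = 0.10 to 0.248 without EV replicate 2 or 3 or WT replicate 2 and adjusted p = 0.053 with no filter on low counts for WT, and adjusted p = 0.071 to 0.131 without EV replicate 2 or 3 or FE255del replicate 2 for FE255del).

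Of the 10 receptor and kinase genes tested, 7 were lower than EV at day 11 in WT, 5 in FE255del and 3 in R219S, with 2 higher in FE255del and 3 in R219S. Over all genes, 19.7% were lower in WT, 19.6% in FE255del and 14.4% in R219S, with 22.6% higher in FE255del and 17.7% in R219S. Over the 10 genes the log2 fold changes ran from -1.31 to 0.02 in WT, -0.36 to 0.52 in FE255del and -0.27 to 0.47 in R219S. Among the receptor chains, Ifnar1 gave -0.07 ± 0.05, -0.09 ± 0.05 and 0.07 ± 0.05 in WT, FE255del and R219S, none passing. Ifnar2 gave -0.25 ± 0.08 (adjusted p = 0.009) in FE255del and Ifnlr1 0.18 ± 0.06 (adjusted p = 0.008), and neither passed in WT. Jak1 (-0.16 ± 0.06, adjusted p = 0.024) and Tyk2 (-0.16 ± 0.06, adjusted p = 0.043) were slightly lower in WT. These small differences were not settled: Ifnar2 was lost at adjusted p = 0.096 without FE255del replicate 1, Ifnlr1 at adjusted p = 0.080 without FE255del replicate 3 and adjusted p = 0.066 with only these groups fitted, Jak1 at adjusted p = 0.091 to 0.234 without EV replicate 1 or WT replicate 1 or 2 and adjusted p = 0.052 to 0.10 with total-count scaling or with only these groups fitted, and Tyk2 at adjusted p = 0.089 to 0.219 without EV replicate 2 or 3 or WT replicate 2 or 3 and adjusted p = 0.055 to 0.236 with RLE scaling, with total-count scaling, with no filter on low counts, with counts halved, with only these groups fitted or with DESeq2.

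Of the 14 genes of the pathway that induces interferon, 5 were lower and 1 higher in WT at day 11, 4 and 2 in FE255del, and 4 and 1 in R219S. In WT, Sting1, the adaptor of DNA sensing, did not pass. Nor did Irf3, the factor it activates (-0.13 ± 0.10), or the DNA sensor Cgas (0.13 ± 0.07, but adjusted p = 0.033 with total-count scaling). Mavs, the adaptor of RNA sensing, gave -0.20 ± 0.05 (adjusted p = 0.001). Irf8 differed by more than 1 on the log2 scale in FE255del (1.54 ± 0.49, adjusted p = 0.010) and R219S (-2.04 ± 0.64, adjusted p = 0.012), at levels under 1 CPM. The FE255del call was lost without EV replicate 1 (adjusted p = 0.081) and the R219S call without EV replicate 3 or R219S replicate 3 (adjusted p = 0.077 to 0.099). Of 9 negative regulators, 5 were lower and 1 higher in WT (median -0.16), 5 and 1 in FE255del (median -0.17), and 1 and 4 in R219S (median 0.17). Over all genes, 19.7% were lower and 21% higher in WT, 19.6% and 22.6% in FE255del, and 14.4% and 17.7% in R219S. Socs1, which blocks the receptor kinases and is induced by interferon, was at 1.34, 1.42 and 0.935 CPM in EV and 0.539, 0.476 and 0.490 in WT. It fell by 1.29 ± 0.22 in WT and 0.53 ± 0.21 in FE255del, and R219S gave 0.23 ± 0.20. The FE255del call was lost in some settings (adjusted p = 0.117 to 0.228 without EV replicate 1 or 2 or FE255del replicate 3 and adjusted p = 0.10 to 0.154 with no filter on low counts or with only these groups fitted). At day 1 it was higher in R219S (1.49 ± 0.21).

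A further list of 54 interferon-induced genes that are not members was tested beside them. Of these, 45 were lower and 1 higher in WT at day 11 (median -0.99), 39 and 3 in FE255del (median -0.47), and 4 and 7 in R219S (median 0.01), with the shares of all genes given above. The genes named next were chosen after their values were seen. In WT the chemokine Cxcl10 gave -2.60 ± 0.38 and Apol9b, an apolipoprotein L gene, -3.88 ± 0.34. The exception that rose in WT was Ifitm1 (0.52 ± 0.08), which encodes a membrane protein that restricts viral entry. In R219S the guanylate-binding genes Gbp4 (1.05 ± 0.23) and Gbp9 (1.12 ± 0.20) and the chemokine Ccl5 (1.43 ± 0.25) rose by more than 1, and Sp110 (-1.65 ± 0.23) and Sp140 (-1.52 ± 0.28), relatives of Sp100, fell.

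To compare levels between genes, CPM was divided by the gene's exonic length in kilobases (GENCODE M21; mean ± SD, n = 3). In EV at day 11 the highest members were Ifi27l2a (154.0 ± 41.0), Ifi27 (94.5 ± 6.9), Lgals3bp (93.5 ± 12), Isg15 (70.4 ± 9.2) and Bst2 (66.5 ± 9.0). Ifi27 and Lgals3bp were not separated beyond their spread, nor were Isg15 and Bst2. In WT the same 5 genes stood at 5.81 ± 0.18, 41.6 ± 1.5, 40.3 ± 1.7, 6.36 ± 1.2 and 16.6 ± 1.6, so that Ifi27l2a stood behind Ifi27 and Lgals3bp there. The lengths join all annotated exons of a gene and may exceed the transcript made in these cells.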

How the data were processed

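RNA sequencing of polyadenylated RNA (RNeasy extraction, TruSeq Stranded mRNA libraries, per the labels' protocols) was done on 36 libraries in 12 groups of 3. The deposited values are expected counts per gene, 1 table per library, which the authors made from mapped reads. STAR 2.4.2a, featureCounts 1.4.3 and the mm10 build are named per the submitters' processing notes, without their roles, and the strand setting and annotation release are not given in the sources used here. All 298311 values not written as whole numbers lay within 3e-09 of one and were rounded. Totals ran from 61476938 to 102385337 counts. Low counts are mostly even, so both reads of a pair may have been counted, and halved counts were tried as an alternative.

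Gene identifiers were paired with symbols from GENCODE M21 (44585 of 45232 matched). Genes passed filterByExpr on the 12 groups, counts were scaled by TMM (factors 0.938 to 1.08), and edgeR 4.0.16 (R 4.3.3, limma 3.58.1) fitted 12 group means to all 36 libraries. Its robust quasi-likelihood F test, two-sided, gave a p per contrast with Benjamini-Hochberg adjustment over all 18176 genes tested, and an adjusted p under 0.05 counted as passed. SE is the size of the log2 fold change divided by the root of F. Levels (CPM) are counts relative to the scaled library size. The 29 contrasts were constructs against EV and against WT at each day, each construct against its day 0, and the difference between those changes and that of EV. The script was tested on simulated data.

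The members and all gene lists were chosen with earlier results of these data known. Genes named were 24 members set by role, the 3 farthest members in each direction of a contrast, and pathway genes set by name or past a log2 fold change of 1. Ifit2 and Ifi27l2a are given by library as the farthest members of their contrasts. Alternatives were RLE or total-count scaling, no filter, halved counts, only the groups compared, the replicate number as a block, each library left out, and DESeq2 1.42.0. The values of 1 pathway gene are not reported here. Promoters are RefSeq (GRCm38.p6), and exonic lengths GENCODE M21 (GRCm38).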

Additional observations from a re-analysis of the deposited data

Results flagged for a closer look

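For the members counted here, the change from day 0 differed between a construct and EV by a test of that difference (edgeR's quasi-likelihood test of the difference between changes, log2 ± SE, 3 libraries per group). To day 11, 44 members changed lower in WT than in EV, 36 lower and 1 higher in FE255del, and 5 lower in R219S, out of 47. Over all genes the shares that changed lower to day 11 were 10.5%, 11.1% and 14.7%, and 9.44% changed higher in FE255del. The R219S count is therefore not above its background. The widest gaps in WT were Ifi27l2a at -5.70 ± 0.55 (adjusted p = 1.7e-08), Trim30a at -5.57 ± 0.51 (adjusted p = 3.1e-09) and Oas2 at -4.49 ± 0.55 (adjusted p = 8.2e-07). Trim30a, Ifi27l2a, Oas2 and Sp100 began above EV in WT, with every WT library of day 0 above every EV library. A part of the gaps of Trim30a, Ifi27l2a and Oas2 is therefore their higher day 0 level. At day 0 Ifi27l2a was at 7.97, 7.10 and 5.01 CPM in WT and 2.56, 2.99 and 4.68 in EV. Oas2 was at 20.8, 19.7 and 14 in WT and 6.28, 10.9 and 11.8 in EV. In FE255del the widest were Trim30a at -3.21 ± 0.50 (adjusted p = 1.8e-05), Ifi27l2a at -2.36 ± 0.53 (adjusted p = 0.002) and Zbp1 at -2.33 ± 0.31 (adjusted p = 1.4e-06). Trim30a began above EV in FE255del as well, so the same holds for its gap there. Isg15 differed by -2.99 ± 0.36 in WT and -1.40 ± 0.35 in FE255del, and Ifit2 went the other way in FE255del, at 0.68 ± 0.10. In R219S the widest of those that passed were Oasl1 at -1.20 ± 0.23 (adjusted p = 1.3e-04), and Oas1g at -0.93 ± 0.33 (adjusted p = 0.034), which was lost in some settings, adjusted p = 0.053 to 0.114 without EV day 0 replicate 1, R219S day 0 replicate 1 or 3, EV day 11 replicate 2 or 3 or R219S day 11 replicate 1 or 3 and adjusted p = 0.084 with no filter on low counts.

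To day 1, 21 members changed lower and 2 higher in WT than in EV, 16 and 3 in FE255del, and 19 and 1 in R219S. Over all genes the shares that changed lower to day 1 were 23.8%, 22.9% and 23.3%, and those that changed higher were 20.2%, 17.4% and 16.1%. Rsad2 gave -1.87 ± 0.43 (adjusted p = 7.3e-04) in WT and -1.71 ± 0.43 (adjusted p = 0.002) in FE255del. In R219S the gap was widest for Oasl1, at -2.58 ± 0.25 (adjusted p = 2.2e-10), and Ifit3 gave -2.30 ± 0.48 (adjusted p = 2.0e-04). Ifit3 was at only 0.23, 0.37 and 0.24 CPM in R219S at day 1 and may share reads with Ifit3b. In WT Oas1a (1.02 ± 0.21, adjusted p = 2.4e-04) and Oasl1 (0.73 ± 0.23, adjusted p = 0.008) went the other way. So did Ddx60 in R219S (1.07 ± 0.28, adjusted p = 0.003) and Mx1 in FE255del (1.18 ± 0.38, adjusted p = 0.013).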

How the results depend on the processing

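Over 58 counts of members past the threshold and the settings tried, 739 of 826 values lay within 1.5 times the reported one. With RLE or total-count scaling, a group's mean summary level shifted by less than the group's SD in 24 of 24 values. Of 3005 values of single genes named in the text, 2840 kept their direction and their side of the threshold. The counts that moved follow by setting, each with the reported count in parentheses.

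With no filter on low counts there were 1 lower for WT against EV, day 0 (2), 1 lower for R219S against EV, day 0 (2) and 0 higher for R219S against EV, day 0 (1). No filter also gave 2 higher for the change of R219S beside the change of EV, day 1 (1) and 3 lower for the change of R219S beside the change of EV, day 11 (5). With only the groups compared in the fit there were 4 lower for WT against EV, day 0 (2), 11 lower for FE255del against EV, day 0 (7) and 2 higher for R219S against EV, day 0 (1). The same fit gave 4 lower for R219S against EV, day 11 (10), 1 higher for R219S against EV, day 11 (3) and 21 lower for FE255del against WT, day 0 (10). Small-group fits also gave 1 higher for R219S against WT, day 0 (0), 18 higher for FE255del against WT, day 11 (35) and 7 lower for EV, day 1 from day 0 (0). Fitting these groups alone gave 2 higher for WT, day 11 from day 0 (1), 3 higher for R219S, day 1 from day 0 (1) and 5 higher for the change of WT beside the change of EV, day 1 (2). Fitting these groups alone gave 5 higher for the change of FE255del beside the change of EV, day 1 (3), 3 higher for the change of R219S beside the change of EV, day 1 (1) and 3 lower for the change of R219S beside the change of EV, day 11 (5). With DESeq2 there were 10 higher for WT against EV, day 0 (6), 4 lower for R219S against EV, day 0 (2) and 2 higher for R219S against EV, day 0 (1). DESeq2 also gave 2 higher for WT, day 11 from day 0 (1), 5 higher for the change of FE255del beside the change of EV, day 1 (3) and 2 higher for the change of R219S beside the change of EV, day 1 (1). With total-count scaling there were 4 lower for R219S against EV, day 0 (2), 0 higher for R219S against EV, day 0 (1) and 18 lower for R219S against EV, day 11 (10). This scaling gave 4 higher for WT, day 1 from day 0 (2), 2 higher for WT, day 11 from day 0 (1) and 4 higher for the change of WT beside the change of EV, day 1 (2). Total counts also gave 1 higher for the change of WT beside the change of EV, day 11 (0), 5 higher for the change of FE255del beside the change of EV, day 1 (3) and 2 higher for the change of R219S beside the change of EV, day 1 (1). With the replicate number as a block there were 1 lower for R219S against EV, day 0 (2). The block moved no other member count by over 1.5 times. Replicate numbers did not pair the samples: deviations of same-numbered libraries correlated from -0.281 to 0.342 over 66 pairs of groups, with all 3 over 0.1 in 1. With RLE scaling there were 0 higher for R219S against EV, day 0 (1) and 2 higher for the change of R219S beside the change of EV, day 1 (1). With counts halved there were 0 higher for R219S against EV, day 0 (1), 1 higher for the change of WT beside the change of EV, day 11 (0) and 2 higher for the change of R219S beside the change of EV, day 1 (1).

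Leaving out single libraries moved the counts to 1 to 3 lower for WT against EV, day 0, 4 to 7 lower for FE255del against EV, day 0 and 0 to 2 lower for R219S against EV, day 0. Next, the ranges were 0 to 1 higher for R219S against EV, day 0, 3 to 18 lower for R219S against EV, day 11 and 5 to 12 lower for FE255del against WT, day 0. Further ranges were 4 to 9 lower for R219S against WT, day 0, 0 to 1 higher for R219S against WT, day 0 and 7 to 11 lower for FE255del against WT, day 1. Single libraries also gave 21 to 39 higher for FE255del against WT, day 11, 1 to 2 higher for WT, day 11 from day 0 and 5 to 9 lower for FE255del, day 11 from day 0. More ranges were 0 to 1 higher for R219S, day 1 from day 0, 0 to 1 higher for the change of WT beside the change of EV, day 11 and 1 to 2 higher for the change of R219S beside the change of EV, day 1. The last ranges were 3 to 10 lower for the change of R219S beside the change of EV, day 11 and 0 to 1 higher for the change of R219S beside the change of EV, day 11. Some values that did not pass changed sign when a library was left out. Their log2 ranges were -0.06 to 0.04 for Irf1, WT against EV, day 11, -0.05 to 0.20 for Ifih1, R219S against EV, day 11 and -0.09 to 0.19 for Ifit1, FE255del against EV, day 11. The others were -0.36 to 0.13 for Isg15, R219S against EV, day 11, -0.23 to 0.01 for Parp14, R219S against EV, day 11 and -0.23 to 0.11 for Xaf1, R219S against EV, day 11. The rest were -0.20 to 0.04 for Irgm1, R219S against EV, day 11. The cause of these moves was not tested, except that a fit of fewer libraries or groups has fewer degrees of freedom.

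Total-count scaling changed the share of calls over all genes that were higher from 65.6% to 47.2% for R219S against EV, day 0, from 49% to 60.8% for WT against EV, day 1 and from 48% to 61% for FE255del against EV, day 1. This share went from 55.2% to 42.6% for R219S against EV, day 11, from 58.3% to 44.9% for FE255del against WT, day 0 and from 59.7% to 43.4% for R219S against WT, day 0. The same share moved from 50.7% to 36.7% for R219S against WT, day 11, from 46.9% to 61.7% for FE255del, day 1 from day 0 and from 43.5% to 56.2% for R219S, day 1 from day 0. Elsewhere it moved from 45.9% to 57.6% for the change of WT beside the change of EV, day 1, from 43.1% to 59.5% for the change of FE255del beside the change of EV, day 1 and from 40.9% to 54.9% for the change of R219S beside the change of EV, day 1. Total-count scaling moved the median over all genes by more than 0.1 in 3 contrasts: 0.12 for WT against EV, day 1, 0.11 for FE255del, day 1 from day 0 and 0.12 for the change of FE255del beside the change of EV, day 1. Less the median of all genes, the members' medians there were -0.27, -0.47 and -0.26, beside -0.28, -0.48 and -0.27 with TMM. The depth of these libraries left Epsti1 and all interferon genes but Ifne untested, and 3 cultures of 1 sorted population per group limit what the p-values cover.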

Other observations

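Some members took a course of their own, given here as CPM in replicates 1, 2 and 3 with no explanation. Oasl1, an OAS-like antiviral protein, was at 6.94, 5.06 and 5.97 in R219S at day 0, where EV was at 6.92, 6.72 and 5.38. At day 1 it was at 0.706, 1.06 and 0.871, beside 5.90, 4.88 and 5.91 for EV, and at day 11 at 2.84, 4.53 and 3.55, beside 7.62, 9.52 and 9.43. All 3 R219S libraries of days 1 and 11 lay below their own day 0 libraries and below EV of the same day.

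Ddx60, a helicase that aids RNA sensing, went the other way at day 1 in R219S, at 9.47, 11.9 and 10.8 beside 4.62, 4.19 and 4.51 for EV. Mx1 in FE255del was at 2.07, 1.98 and 1.78 at day 0, below the EV libraries at 3.18, 4.56 and 3.47. At day 1 it was at 4.21, 4.19 and 4.48, above EV at 3.75, 3.80 and 3.40, with a fold change that did not pass (adjusted p = 0.486, but adjusted p = 0.039 with only these groups fitted). At day 11 it was at 7.30, 3.22 and 6.03, again below EV at 8.76, 16.1 and 13.9.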
